A study of Mus musculus with 32 samples.

Results

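IGF2BP3 binding sites shared by both cell types are the eCLIP peaks that were found at the same place in cultured MLL-Af4 bone marrow cells and in leukemic spleen cells. A shared site is a peak of Lin- biological replicate 1 that overlapped, by 1 nt or more on the same strand, a peak of each of the other 4 biological libraries, after removal of the peaks that overlap those of the size-matched input (smInput). This held for 612 of the 7361 filtered peaks of Lin- replicate 1 (8.31%), out of 74378 filtered peaks in the 10 eCLIP libraries. The number depends on the libraries and the limit used, with 963 sites when Lin- replicate 1 is left out and Lin- replicate 2 taken in its place, and 350 with a deposited p-value below 0.001. The sites were thus chosen by the presence of a peak, with its deposited p-value below 0.05, in these 5 libraries, and that presence is a description with no test. The 5 technical libraries were not used by the rule.

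All eCLIP libraries came from wild-type cells that express the MLL-Af4 fusion (WT/MLL-Af4), without treatment. The Lin- cells were lineage-depleted mouse bone marrow cells infected with a retrovirus carrying MLL-flag-Af4, selected with G418 and grown in culture with cytokines. The CD11b+ cells were taken by magnetic selection for CD11b from the splenic tumors of leukemic WT/MLL-Af4 mice, so they are a selected myeloid population of a tumor and can hold other cells. There were 3 biological and 3 technical Lin- libraries and 2 biological and 2 technical CD11b+ libraries, each with its smInput. The labels do not say which technical library belongs to which biological one. No eCLIP library from knockout (I3KO) cells was analysed here, so binding of the antibody in the absence of IGF2BP3 was not measured. For RNA-seq, 3 libraries of each genotype, WT and I3KO, had been made per cell type, and only the authors' mean per cell type is used, pooled over both genotypes. Peaks in marker genes went with the labels for some markers and not for others. Itgam, Csf1r and Lyz2, genes of myeloid cells, had 6, 7 and 5 peaks in CD11b+ replicate 1 and 0 in Lin- replicate 1, while the progenitor receptors Kit and Flt3 had 2 peaks each in Lin- replicate 1 and 0 in CD11b+ replicate 1. Fcgr3 had 1 peak in Lin- replicate 1 and 4 in CD11b+ replicate 1. Of the other progenitor markers, Meis1 had 2 and 1 peaks in that order, and Hoxa9 had 4 and 7, more in CD11b+. Cd14 and Cd34 had no peak in either library.

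IGF2BP3 is an oncofetal RNA-binding protein that contacts RNA through RRM and KH domains, and is known for controlling the stability and translation of messenger RNAs, with a preference for CA-rich elements and for methylated adenosine. In eCLIP, proteins are crosslinked to RNA with ultraviolet light, the protein is immunoprecipitated, and the RNA fragments that come with it are sequenced, whereas the smInput is the same lysate without immunoprecipitation. Introns hold several elements that such peaks can fall on: the pyrimidine-rich tract that precedes the 3′ splice site, simple repeats, and small RNAs such as snoRNAs, which are cut out of introns of host genes and guide the modification of ribosomal and spliceosomal RNA.

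The shared sites fell into a few recognisable kinds of sequence, and the first were snoRNAs. The following snoRNA genes are printed because their sites ranked high or changed most between cell types (mm10 genome, 5′ to 3′, on the strand of the gene). Capitals mark the stretch that the peaks of all 5 biological libraries had in common. In Snord14c (chr9:40803583-40803668, plus strand, in an intron of Hspa8), Snord8 (chr14:52209785-52209894, minus strand, Chd8) and Snord111 (chr8:110838528-110838616, minus strand, Sf3b3) this stretch measured 10, 8 and 10 nt. In Snord16a (chr9:64175423-64175521, plus strand, Rpl4) the peaks had no stretch in common. The letters TGATGA in the first 20 nt and CTGA in the last 20 nt, which mark C/D box snoRNAs, stood in Snord14c, Snord8 and Snord111.
Snord14c: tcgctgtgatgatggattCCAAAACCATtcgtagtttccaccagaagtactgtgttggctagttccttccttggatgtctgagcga
Snord8: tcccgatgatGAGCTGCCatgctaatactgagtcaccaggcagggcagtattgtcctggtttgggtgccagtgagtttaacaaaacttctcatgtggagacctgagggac
Snord111: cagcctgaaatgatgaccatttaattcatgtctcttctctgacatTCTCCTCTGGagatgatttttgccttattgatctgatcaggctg
Snord16a: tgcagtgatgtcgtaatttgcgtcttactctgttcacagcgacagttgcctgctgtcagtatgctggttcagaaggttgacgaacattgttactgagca

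Intronic sites close to a 3′ splice site formed a different kind, often with runs of C and T. The printed stretch covers the peaks of all 5 libraries joined together, and capitals again mark what all 5 had in common. Hnrnpl (chr7:28818416-28818475, plus strand) encodes a splicing regulator, Mdm4 (chr1:133003872-133003938, minus strand) an inhibitor of p53, and Lmo2 (chr2:103975962-103976023, plus strand) a hematopoietic transcription cofactor. Myc (chr15:61989286-61989367, plus strand) and the histone gene H3f3b (chr11:116023764-116023898, minus strand) are shown because their reads were higher in Lin- cells. Hoxa9 (chr6:52225604-52225673, minus strand) is a homeobox target of MLL fusions. The midpoints of these sites lay 17 nt (Hnrnpl), 15 nt (Mdm4), 18 nt (Lmo2), 17 nt (Myc), 27 nt (H3f3b) and 20 nt (Hoxa9) upstream of the nearest annotated 3′ splice site.
Hnrnpl: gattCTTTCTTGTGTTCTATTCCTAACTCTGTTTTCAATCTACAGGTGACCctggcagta
Mdm4: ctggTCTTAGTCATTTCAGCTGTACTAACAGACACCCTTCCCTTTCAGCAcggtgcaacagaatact
Lmo2: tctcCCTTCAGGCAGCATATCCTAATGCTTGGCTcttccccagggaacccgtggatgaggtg
Myc: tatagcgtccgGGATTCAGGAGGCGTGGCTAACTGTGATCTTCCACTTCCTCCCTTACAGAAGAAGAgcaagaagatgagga
H3f3b: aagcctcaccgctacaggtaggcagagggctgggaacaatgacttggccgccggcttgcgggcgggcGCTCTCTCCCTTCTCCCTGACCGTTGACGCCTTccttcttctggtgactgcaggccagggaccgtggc
Hoxa9: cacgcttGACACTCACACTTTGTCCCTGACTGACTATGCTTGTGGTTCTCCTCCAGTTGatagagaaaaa

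Deep in introns, several shared sites were simple repeats. Slc25a12 (chr2:71300915-71300960, minus strand), encoding a mitochondrial aspartate and glutamate carrier, and Btd (chr14:31648396-31648476, plus strand), encoding biotinidase, carried TG runs. Mbnl1 (chr3:60528534-60528639, plus strand), encoding a splicing regulator, carried an AG run, and Irf8 (chr8:120745114-120745210, plus strand), encoding a transcription factor of the monocyte lineage, a CA run. Srsf6 (chr2:162932216-162932265, plus strand) is printed as the highest-ranked site in a protein-coding gene without a small RNA, and Srrm2 (chr17:23812355-23812436, plus strand) and Snrnp70 (chr7:45380830-45380916, minus strand) as further genes of the splicing machinery. Capitals have the same meaning as above.
Slc25a12: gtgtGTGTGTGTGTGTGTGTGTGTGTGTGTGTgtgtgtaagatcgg
Btd: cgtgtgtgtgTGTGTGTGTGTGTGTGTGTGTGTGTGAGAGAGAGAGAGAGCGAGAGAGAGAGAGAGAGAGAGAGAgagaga
Mbnl1: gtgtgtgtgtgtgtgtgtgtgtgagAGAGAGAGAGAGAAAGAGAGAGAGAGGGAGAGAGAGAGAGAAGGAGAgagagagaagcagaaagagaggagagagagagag
Irf8: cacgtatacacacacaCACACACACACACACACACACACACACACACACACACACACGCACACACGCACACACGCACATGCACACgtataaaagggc
Srsf6: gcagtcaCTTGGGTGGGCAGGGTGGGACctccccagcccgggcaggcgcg
Srrm2: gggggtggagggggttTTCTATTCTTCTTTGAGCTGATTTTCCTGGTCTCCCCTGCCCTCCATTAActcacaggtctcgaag
Snrnp70: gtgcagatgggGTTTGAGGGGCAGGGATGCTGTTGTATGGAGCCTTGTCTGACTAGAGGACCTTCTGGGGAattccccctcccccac

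The shared sites were carried by 446 gene IDs, of which 371 had 1 site and 75 had 2 or more. Sites that overlap or abut joined into 487 loci, 416 of them with 1 site and none with more than 8, and 41 loci had sites of 2 or more gene IDs. The sites are therefore not independent of each other, because the peak caller cuts a broad signal into several peaks and reports it again for an overlapping gene. Their median width was 47 nt (2 to 165 nt). In 576 sites there was a stretch common to all 5 libraries, with a median of 27 nt, and 36 sites had none. Peak centres in the other libraries lay a median of 4 to 6 nt from that of Lin- replicate 1. A site held a median of 13, 21 and 14 reads in Lin- replicates 1 to 3, and of 14 and 20 reads in CD11b+ replicates 1 and 2, with a lowest value of 3 in each library. Many sites were thus supported by few reads.

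By location, shared sites stood apart from other reproducible sites in the part that fell on small RNAs. For comparison, sites found only in Lin- were peaks of Lin- replicate 1 with an overlapping peak in the other 2 Lin- biological libraries and in neither CD11b+ one (922), and CD11b+ only sites were defined in the same way from CD11b+ replicate 1 (1844). A further comparison used the 6749 peaks of Lin- replicate 1 that were not shared. Midpoints of 330 shared sites lay in introns (53.9%, Wilson 95% interval 49.96 to 57.8), and 211 in exons of small RNA genes (34.5%, 30.8 to 38.3). The share on small RNA exons was 4.45% of Lin- only sites, 1.84% of CD11b+ only sites and 5.91% of the peaks that were not shared. Coding exons took 2.12% of shared sites, against 32.7% of Lin- only and 1.25% of CD11b+ only sites. The 3′UTR took 4.90% of shared sites, against 2.60% of Lin- only and 13.3% of CD11b+ only sites. These intervals cover counting error only, and since sites are not replicates no test was made. Counted by locus, 116 of 487 shared loci (23.8%) held a small RNA, against 4.55% of Lin- only and 1.22% of CD11b+ only loci. The difference was smaller by locus, where 216 sites that overlapped a small RNA joined into 116 loci. Joined sites were several peaks on the same small RNA, or peaks listed under both a host gene and its small RNA.

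**Figure D1:**
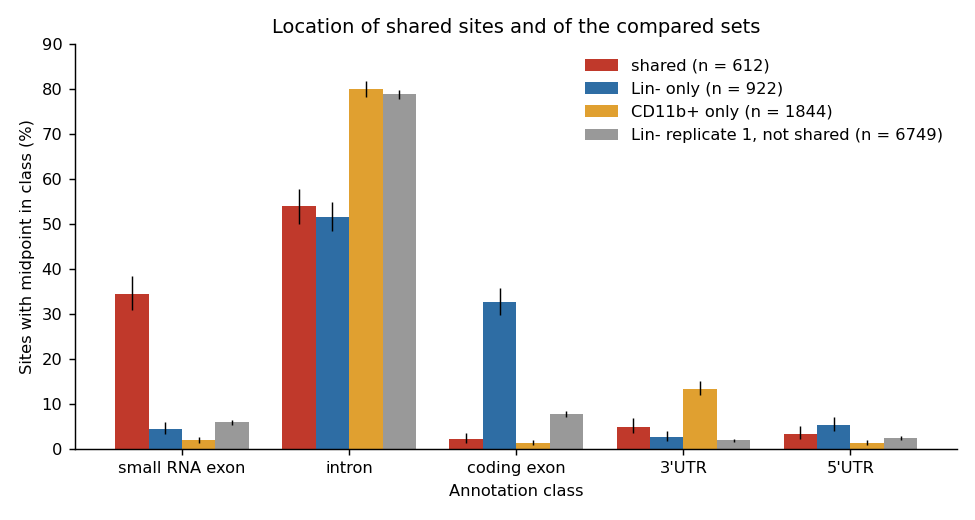
Share of sites (%, y axis) whose midpoint fell in each annotation class (x axis), for shared sites, Lin- only sites, CD11b+ only sites and the peaks of Lin- replicate 1 that were not shared; bars show the share and lines the Wilson 95% interval. Small RNA exons held 34.5% of shared sites and at most 5.91% of each compared set, while coding exons held 32.7% of Lin- only and 2.12% of shared sites.

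In all, 216 shared sites overlapped 103 small RNA genes. The largest group was snoRNAs, with 139 sites on 50 genes, followed by small nuclear RNAs of the spliceosome and their copies (39 sites, 28 genes), Cajal body RNAs, which guide the modification of those small nuclear RNAs (14 sites, 6 genes), miRNAs (13 sites, 10 genes), other small RNAs (10 sites, 8 genes) and 1 site on a 5S rRNA copy. For 144 of the 216 sites the gene ID of the peak was that of the gene that hosts the small RNA, so that a peak named Hspa8, Sf3b3 or Rpl4 need not lie on the messenger RNA. Many copies of small nuclear RNAs are near-identical, and the reads of a copy cannot be assigned with certainty. Within the 56 genes of snoRNAs and Cajal body RNAs, the midpoints of 153 sites were spread over the 5′ part (55), the middle (56) and the 3′ part (41) of the RNA when it is cut into 3 equal lengths, and 1 lay downstream. Of these genes, 22 had the letters of both C/D boxes at their ends, and 12 others had ACA in the last 8 nt, the mark of H/ACA box RNAs. Letters of both classes thus occurred among the genes under shared sites, though ACA is a short match and the remaining genes had neither mark.

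Of the 8 host genes with 6 or more shared sites, 6 carried them on small RNAs. Hspa8, encoding a constitutive heat shock chaperone, had 15 sites in 3 loci, all on Snord14c, Snord14d and Snord14e. Ddx39b, encoding an RNA helicase of mRNA export, had 9 sites on 2 small RNAs, and the autophagy gene Atg16l1 had 8 on the Cajal body RNAs Gm25395 and Scarna6. Sf3b3, encoding a subunit of the U2 snRNP, had 6 sites on Snord111, and the endosomal gene Snx5 had 6 on Snord17. D230017M19Rik had 6 sites on small RNAs, 5 of them on the small nuclear RNA copy Gm25939. Noc2l, encoding a nucleolar protein, was different, with 7 abutting sites in 1 intron (chr4:156236761-156236957, plus strand) and no annotated small RNA. Its strongest peak held 36, 172 and 38 reads in the Lin- replicates and 24 and 50 in the CD11b+ replicates. Zeb2, encoding a transcription factor, had 6 sites in 5 intronic loci, and Hnrnpu and Srsf6 had 5 sites each, none on a small RNA.

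Ranked by the largest of the 5 deposited p-values, 8 of the 10 leading sites lay on small RNAs. The first was Gm24950 (chr11:101641821-101641827, plus strand), an annotated small nuclear RNA copy. It held 400, 481 and 354 reads in the Lin- replicates and 745 and 826 in the CD11b+ replicates. All 10 smInput libraries had a peak within 50 nt of it, and its part in this signal was not tested. The next 3 were a small RNA, Gm23037, listed under its own ID and under that of its host gene Zfp318, and Gm25939 in D230017M19Rik. Gm23037 held 96, 215 and 176 reads in Lin- and 137 and 257 in CD11b+. After Srsf6, which is described below with the splicing genes, came Snord14c in Hspa8, whose first site held 158, 217 and 56 reads in Lin- and 56 and 139 in CD11b+. These groups overlapped. Snord71, in an intron of the adaptor gene Ap1g1, held 95, 361 and 42 reads in Lin- and 46 and 120 in CD11b+. The exceptions among the 10 were Srsf6 and the noncoding RNA Gm42418 (chr17:39848535-39848554, plus strand), with 365, 196 and 57 reads in Lin- and 37 and 175 in CD11b+. The deposited p-values chose these sites, so the ranking is descriptive.

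The miRNA sites are shown with the mature sequences they covered (RefSeq, GRCm38.p6), the seed (bases 2 to 8) in capitals. Of the 10 miRNA genes, 9 were matched by symbol, and 13 of their 17 mature miRNAs were covered by 1 nt or more. No seed occurred more than once among the 17. Whole coverage of both arms was seen for Mir21a (chr11:86584082-86584103 and chr11:86584120-86584141, minus strand, in the 3′UTR of Vmp1) and Mir24-2 (chr8:84208839-84208860 and chr8:84208875-84208896, plus strand). Of the other sequences shown, whole coverage was seen for a single arm, in Mir19b-1 (chr14:115044358-115044380, plus strand, of the Mir17hg cluster) and Mir222 (chrX:19146901-19146923, minus strand).
mmu-miR-21a-5p: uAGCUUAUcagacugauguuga
mmu-miR-21a-3p: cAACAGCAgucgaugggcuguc
mmu-miR-24-2-5p: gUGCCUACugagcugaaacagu
mmu-miR-24-3p: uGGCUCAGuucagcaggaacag
mmu-miR-19b-3p: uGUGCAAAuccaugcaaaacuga
mmu-miR-222-3p: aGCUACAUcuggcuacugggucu

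Reads on these miRNA sites were low. Mir21a held 26, 9 and 20 reads in Lin- and 5 and 18 in CD11b+, and Mir24-2 held 9, 16 and 18 in Lin- and 8 and 8 in CD11b+. The Mir17hg transcript, the oncogenic miR-17 to miR-92a cluster, carried 3 sites, of which that on Mir19b-1 held 13, 70 and 11 reads in Lin- and 5 and 10 in CD11b+. Mir222 held 9, 13 and 8 reads in Lin- and 15 and 16 in CD11b+.

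Filtering against the smInput left little direct overlap, but small RNA sites were often next to input signal. In all, 7 shared sites overlapped a peak of some smInput library (0 to 3 per library), those in Zeb2, Eif4g2, Trrap, Chd8, Rabggtb, Mctp1 and Nedd9. With 1 biological library left out of the definition this count was 26 to 90, the highest without Lin- replicate 1. Within 50 nt of an smInput peak lay 45 of the 216 small RNA sites (20.8%) and 12 of the 396 other sites (3.03%). A peak of Lin- replicate 1 that the filter had removed lay within 50 nt of 32 small RNA sites and of 2 others. Of the 103 small RNA genes, 26 had an smInput peak somewhere along their length, and 57 shared sites lay on those genes. The part of input signal in the small RNA sites was not tested. Without the filter, 2143 peaks would be shared, 64.8% of them in small RNA exons, and 1531 would overlap an smInput peak.

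Away from small RNAs, 396 shared sites remained, and many lay just upstream of an exon. Of these, 37.6% (33.0 to 42.5) had their midpoint within 100 nt of an annotated 3′ splice site of the host gene, and 191 (48.2%, 43.4 to 53.2) within 100 nt of any splice site. For any splice site, the share was 70.5% of Lin- only sites, 10.9% of CD11b+ only sites and 78.7% of the peaks that were not shared, all without small RNAs. The shared sites thus lay between the reproducible sites of each cell type. The 140 sites that lay 1 to 100 nt upstream of a 3′ splice site were a median of 23 nt from it (quartiles 17 and 30 nt), and 111 of them (79.3%) lay 11 to 40 nt upstream. In Lin- only sites the median was 21 nt and in CD11b+ only sites 29 nt.

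**Figure D2:**
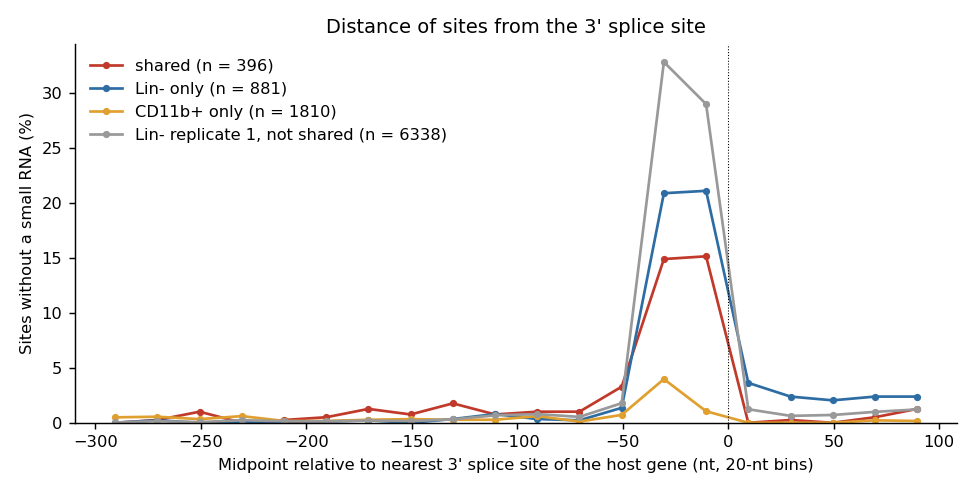
Distance of site midpoints from the nearest annotated 3′ splice site of the host gene (nt, x axis, negative values upstream in the intron, 20-nt bins) against the share of sites without a small RNA (%, y axis), for shared, Lin- only, CD11b+ only and not shared sites. Each curve peaks in the 40 nt before the splice site, lower for shared than for Lin- only sites and lowest for CD11b+ only sites.

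A site called intronic by protein-coding transcripts was often exonic in another annotated transcript. Of the 396 sites, 104 (26.3%, 22.2 to 30.8) lay in an exon of a noncoding transcript of a protein-coding gene when all annotated transcripts were used, against 11.01% of Lin- only sites, 6.80% of CD11b+ only sites and 16.0% of the peaks that were not shared. The annotation calls 92 of the 104 a retained intron, 18 a processed transcript and 4 a target of nonsense-mediated decay, and a site can have more than 1 such transcript. Sites in genes of the list of splicing factors, hnRNPs and RNA helicases lay in such exons in 25 of 51 cases (49.0%), those in other genes in 79 of 345 (22.9%). In Srsf6 all 5 sites lay in such exons. Genes with many annotated isoforms offer more of them, and this was not taken into account.

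Splicing genes were the list with the most shared sites. Among the 70 listed splicing factors, hnRNPs and RNA helicases with a peak in Lin- replicate 1, 31 had a shared site, against 441 of all 3815 named genes with such a peak (11.6%). They carried 60 sites, 51 of them without a small RNA. Srsf6, encoding a serine and arginine-rich splicing factor, held 75, 145 and 296 reads in the Lin- replicates and 188 and 127 in the CD11b+ replicates at its leading site (chr2:162932223-162932244, plus strand). The groups overlapped, and all 5 technical libraries had a peak there. Srrm2, encoding a scaffold protein of nuclear speckles, held 28, 65 and 106 reads in Lin- and 163 and 110 in CD11b+, 33 nt upstream of a 3′ splice site. In Hnrnph1, encoding an hnRNP, a site 17 nt upstream of a 3′ splice site held 31, 47 and 75 reads in Lin- and 19 and 33 in CD11b+. Snrnp70, encoding a protein of the U1 snRNP, is not on the list but held 25, 92 and 131 reads in Lin- and 196 and 126 in CD11b+, and it was chosen after its values were seen. In all of these genes both cell types had peaks well above the lowest reads of a shared site.

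Among 20 MLL-fusion targets and fusion genes with a peak in Lin- replicate 1, 8 had a shared site, 15 sites in all. They were Myb, Zeb2, Runx1, Lmo2, Hoxa9, Mbnl1, Runx2 and Arid1b. Myb, encoding a transcription factor of progenitors, had its site in the 5′UTR (chr10:21160879-21160949, minus strand), with 30, 27 and 35 reads in Lin- and 39 and 83 in CD11b+. Its central 30 nt are TCAACCTGTTTCCTCCTCCTCCTTCTCCTC (chr10:21160898-21160927, minus strand), a run of C and T. The Hoxa9 site held 45, 34 and 20 reads in Lin- and 15 and 12 in CD11b+, 20 nt upstream of a 3′ splice site. The Lmo2 site held 12, 14 and 42 reads in Lin- and 22 and 23 in CD11b+. Runx1, a core hematopoietic transcription factor, held 16, 42 and 16 reads in Lin- and 35 and 61 in CD11b+, far from any annotated splice site. Per 100000 peak reads, the scale used below, the groups overlapped at Myb and Lmo2, all 3 Lin- libraries were higher at Hoxa9 and both CD11b+ libraries were higher at Runx1.

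The remaining lists ranged widely in their share of genes with a shared site. Of 26 hematopoietic transcription factors with a peak in Lin- replicate 1, 11 had a shared site, and of 17 genes of the IGF2BP family and known partner mRNAs, 4 did (Actb, Pabpc1, Hnrnpu and Myc). Among ribosomal proteins and translation factors it was 14 of 89 with 26 sites, of which only 7 were off a small RNA. Chromatin regulators had 6 of 57, cytokine receptors and myeloid surface genes 2 of 14 (Itgal and Ptprc), and long noncoding RNAs 1 of 7 (Snhg17). The CD11b+ myeloid markers had 0 of 1 and the Lin- progenitor markers 1 of 4 (Hoxa9). Against the 11.6% of all genes with a peak, the share of chromatin genes was not higher. Long genes with many peaks have more chances to hold a shared site, and gene length was not taken into account.

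Sequence motifs were searched on the strand of the peak in each midpoint base and 50 nt to either side of it. The 6-mers TGTGTG or GTGTGT occurred in 16.5% of shared sites (13.8 to 19.7), against 5.21% of Lin- only sites, 36.2% of CD11b+ only sites and 10.2% of the peaks that were not shared. ACACAC or CACACA occurred in 6.37% of shared sites (4.70 to 8.59), against 4.88%, 14.8% and 6.42% in the same order. AGAGAG or GAGAGA occurred in 6.86%, against 6.40%, 22.8% and 4.58%. The repeats of the CD11b+ only sites were thus less common in shared sites. Without small RNAs, the CA share was 8.84% of shared sites (6.42 to 12.0), 4.65% of Lin- only, 15.0% of CD11b+ only and 6.49% of not shared sites. GGACT, the core of the methylated adenosine motif, occurred in 8.66% of shared sites, against 8.03% of Lin- only, 4.61% of CD11b+ only and 7.497% of not shared sites. CATCA occurred in 5.39% and TTTTTT in 6.54% of shared sites, near the 6.73% and 6.21% of all Lin- replicate 1 peaks. TGATGA, the C box letters, occurred in 9.64% of shared sites but in 1.77% of those without a small RNA. Matches of overlapping motifs were counted separately.

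Position and repeats went together. Of the 205 shared sites without a small RNA that lay more than 100 nt from a splice site, 60 (29.3%, 23.5 to 35.8) held a TG 6-mer, and a mean of 52.4% of the window was repeat-masked. Of the 191 within 100 nt of a splice site, 17 (8.90%, 5.63 to 13.8) held a TG 6-mer, and 13.8% of the window was repeat-masked. Pyrimidines made up a median of 55.7% of the peak near splice sites and 49.5% of the peak away from them. Among the Lin- only sites away from splice sites 4.62% held a TG 6-mer, and among the CD11b+ only ones 39.6% did. Near splice sites these shares were 5.475% and 14.7%. Among the peaks of Lin- replicate 1 that were not shared, the share was 23.2% away from splice sites and 7.22% near them. The higher TG share away from splice sites was thus not particular to shared sites, and it was not seen in Lin- only sites. Reads in repeats can align to more than 1 place, and how far this affects such sites was not tested.

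Because the technical libraries had not chosen the sites, their peaks show how often a shared site was found again. In the Lin- technical libraries 4, 5 and 6, 73.0%, 89.5% and 82.7% of the 612 sites overlapped a filtered peak, and in the CD11b+ technical libraries 3 and 4, 81.5% and 85.1%. The mean was 81.8% ± 8.29 (SD, n = 3) in Lin- and 83.3% ± 2.54 (SD, n = 2) in CD11b+. The difference of -1.58 percentage points was within the spread between libraries (exact permutation test, two-sided, p = 0.9, smallest p possible 0.1). Without CD11b+ biological replicate 1 in the definition, the sites numbered 911 and the difference was 10.4 points. In all 5 technical libraries 298 sites were found, and 5 sites were found in none. Technical libraries are not separate cultures or mice, so these tests measure the spread between libraries.

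Lin- only sites came back less often in the same Lin- libraries, with 64.3%, 72.1% and 69.3%. Shared sites exceeded them by 13.2 percentage points on average, in 3 of 3 libraries. The rule asked for a peak in 5 libraries for shared sites and in 3 for Lin- only sites. Their median reads in Lin- replicate 1 were 13 and 8, and the part of this selection in the excess was not tested. For sites taken before the smInput filter the excess turned to -27.8 points, with the peaks of the technical libraries still filtered. An exact sign-flip permutation test (two-sided) gave p = 0.25, the smallest p that 3 libraries allow. In the CD11b+ technical libraries 4.01% and 4.56% of Lin- only sites had a peak, and in the Lin- technical libraries 2.17% to 6.67% of CD11b+ only sites did. Cell-type sites thus stayed with their cell type in libraries that had not chosen them, while the shared sites appeared in both. The technical libraries may share their cells with the libraries that chose the sites, so this recovery does not cover the spread between cultures or mice.

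**Figure D3:**
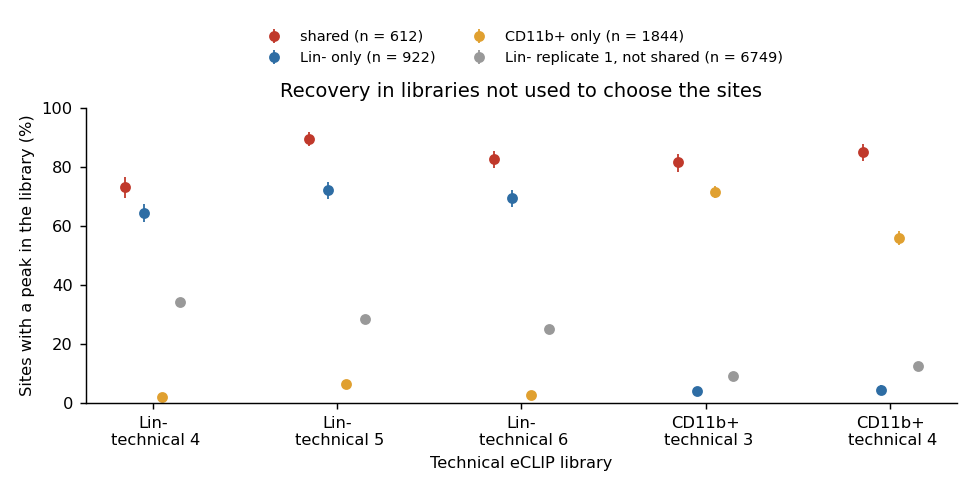
Share of sites (%, y axis) that overlapped a filtered peak in each technical library (x axis), with Wilson 95% intervals, for shared, Lin- only, CD11b+ only and not shared sites. Shared sites lie between 73.0% and 89.5% in all 5 libraries, whereas Lin- only sites fall from 64.3% or more in Lin- to 4.56% or less in CD11b+.

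To compare the amount of signal, reads in a peak were divided by the reads in all filtered peaks of the library and given per 100000. In each other library the reads were those of the peak with the longest overlap with the peak of Lin- replicate 1. Peaks of different libraries need not cover the same bases, and the part of peak borders in the differences below was not tested. Fewer cells that bind and less bound RNA per cell cannot be told apart in such bulk libraries. The libraries were of unequal depth, with 73052 to 233695 reads in filtered peaks among the biological and 35663 to 135453 among the technical ones. Small RNA peaks took 25.9%, 49.9% and 15.7% of the peak reads in Lin- replicates 1 to 3 and 10.7% and 24.2% in CD11b+ replicates 1 and 2. The Lin- technical libraries 4, 5 and 6 had 30.2%, 51.2% and 19.1%, close to Lin- replicates 1, 2 and 3 in that order, though the labels pair no libraries. The small RNA content of Lin- replicate 2 thus stood apart, and its part in the values below was not tested.

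Shared sites carried 18.4%, 16.2% and 15.0% of the peak reads in the Lin- replicates and 13.6% and 14.4% in the CD11b+ replicates. In the technical libraries the mean was 17.9% ± 3.27 (SD, n = 3) in Lin- and 13.2% ± 1.01 (SD, n = 2) in CD11b+, a difference of 4.78 points that the exact permutation test did not separate (two-sided p = 0.2, smallest possible 0.1). Small RNA sites made up this difference, with 9.54% ± 2.87 in Lin- and 4.35% ± 1.53 in CD11b+ (difference 5.19 points, exact permutation p = 0.2). Shared sites without a small RNA carried 8.40% ± 3.12 and 8.81% ± 0.518 of the reads (exact permutation p = 0.9).

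At single sites, reads were taken to differ where the libraries of the cell types did not overlap. All 3 Lin- libraries were above both CD11b+ libraries in 104 of the 612 shared sites (16.99%), and both CD11b+ libraries were above all 3 Lin- libraries in 82 (13.4%). Across all 3800 merged regions with a peak in at least 1 biological library of each cell type, a library without a peak being set to 0, the same count gave 6.03% for Lin- higher and 18.4% for CD11b+ higher. Members have a peak in every library by definition, while a region that lacks a peak in any Lin- library cannot be counted as higher in Lin-. The 2 sets are thus not alike, and nothing is read from the members' counts against this background. Merged into regions in the same way, the members gave 84 Lin- higher and 79 CD11b+ higher of 474 regions (17.7% and 16.7%), and with scaling by the median ratio 82 and 100. The median log2 difference (Lin- minus CD11b+) was 0.25 over all sites, 0.71 at small RNA sites and -0.07 at the others, and 0.17, 0.63 and -0.15 with median-ratio scaling.

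**Figure D4:**
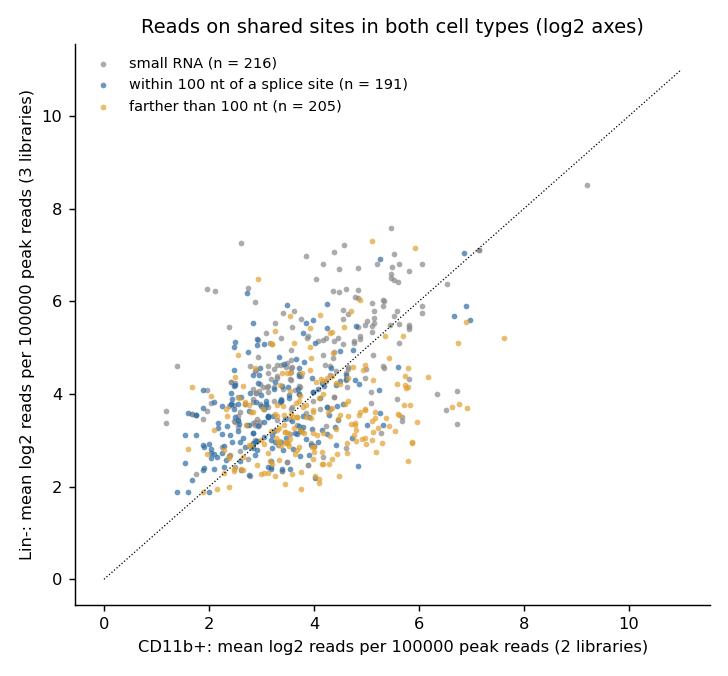
Mean log2 reads per 100000 peak reads of each shared site in CD11b+ (x axis, 2 biological libraries) and Lin- (y axis, 3 biological libraries), colored by small RNA sites, sites within 100 nt of a splice site and sites farther away; the dotted line marks equal values. Small RNA sites lie mostly above the line (median log2 difference 0.71), and many sites far from splice sites lie below it (median -0.42).

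These differences were looked for again in the technical libraries, with a site lacking a peak set to 0 reads. Of the 104 sites higher in Lin-, 59 (56.7%) had all 3 Lin- technical libraries above both CD11b+ ones, and 0 had the reverse. Of the 82 sites higher in CD11b+, 41 (50%) had both CD11b+ technical libraries above all 3 Lin- ones, and again 0 had the reverse. Among the 426 sites whose biological libraries overlapped, these counts were 72 (16.9%) and 28 (6.57%). The technical libraries may share their cells with the biological ones.

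Among the sites higher in Lin- and free of small RNAs, H3f3b, Myc and Brd2 lay beside 3′ splice sites. The H3f3b site (27 nt upstream) held 113, 23.1 and 145 reads per 100000 in the Lin- replicates and 6.41 and 6.82 in the CD11b+ replicates, 10.9-fold on the mean log2 scale. It had no peak in either CD11b+ technical library. Myc, encoding the proliferation factor, held 97.0, 12.8 and 79.4 in Lin- and 5.50 and 9.30 in CD11b+ (6.47-fold), and Brd2, encoding a bromodomain protein, held 44.9, 9.41 and 78.0 against 5.50 and 5.58 (5.79-fold). In each of these genes Lin- replicate 2 was the lowest Lin- library and still above CD11b+. Cmss1 differed most, with 374, 74.0 and 26.0 reads per 100000 in Lin- and 3.66 and 16.1 in CD11b+ (11.7-fold), in an intron far from any annotated splice site. Ddx5, encoding an RNA helicase, held 58.2, 20.1 and 41.1 against 4.58 and 12.4 (4.82-fold).

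On small RNAs, Rpl21, Snord45b and Rpl4 led the sites higher in Lin-. The snoRNA Gm25091 in Rpl21, a ribosomal protein gene, held 218, 225 and 73.9 reads per 100000 in Lin- and 20.2 and 1.86 in CD11b+ (25.1-fold). This was not repeated in every technical library, where Lin- held 16.0, 222 and 126 and CD11b+ 41.5 and 57.6. Snord45b held 41.2, 184 and 60.2 in Lin- and 8.24 and 1.86 in CD11b+ (19.7-fold). Its technical libraries held 149.1, 196 and 89.7 in Lin- and 10.9 and 54.6 in CD11b+, without overlap. Snord16a in Rpl4 held 143, 116 and 28.8 in Lin- and 11.9 and 3.72 in CD11b+ (11.8-fold), whereas its technical libraries overlapped. The peaks of its biological libraries had no stretch common to all of them, so their reads were not counted over the same bases. Low values at such sites come from a small number of reads, 3 and 6 in CD11b+ replicate 2 for Rpl21 and Rpl4.

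Of all sites higher in CD11b+, the largest difference was on the small nuclear RNA copy Gm25939 in D230017M19Rik, with 3.64, 10.3 and 28.8 reads per 100000 in Lin- and 132 and 85.6 in CD11b+ (10.4-fold). Its technical libraries overlapped, with 503, 16.2 and 199.1 in Lin- and 197 and 10.3 in CD11b+. No other shared site on Gm25939 was among the small RNA sites with the largest differences in this direction. The value thus describes this site and not the whole RNA. Among the sites without a small RNA, those with the largest differences toward CD11b+ were repeats in introns and a 3′UTR. Klf13, encoding a transcription factor, had its site in the 3′UTR (chr7:63889997-63890043, minus strand), whose central 30 nt read GTGTGTGTGTGTGCGCGCGCGCGTGAGTGT (chr7:63890012-63890041). It held 7.28, 3.42 and 8.21 reads per 100000 in Lin- and 56.8 and 54.0 in CD11b+ (9.39-fold). The TG and AG run of Btd held 9.70, 7.70 and 28.8 in Lin- and 120 and 120 in CD11b+ (9.31-fold), and in the technical libraries 24.0, 13.3 and 33.7 against 244 and 169. The AG run of Mbnl1 held 8.49, 24.4 and 12.3 in Lin- and 148 and 78.8 in CD11b+ (7.91-fold). The CA run of Irf8 held 10.9, 4.28 and 9.58 in Lin- and 53.1 and 63.9 in CD11b+ (7.62-fold). None of these groups overlapped in the biological libraries, and all 4 also stayed apart in the technical ones. Further genes of this kind were Atp8b4, Rnf169, Ogt and Foxo3, between 5.41-fold and 7.48-fold. In Irf8 not every site went this way, since that 19 nt upstream of a 3′ splice site held 11, 19 and 20 reads in Lin- and 21 and 6 in CD11b+, which overlap.

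Sites without a small RNA also differed by position. Of the 191 sites near splice sites, 36 (18.9%) were higher in Lin- and 9 (4.71%) in CD11b+, with a median log2 difference of 0.38. Of the 205 sites farther away, 17 (8.29%) were higher in Lin- and 60 (29.3%) in CD11b+, with a median of -0.42. These 2 groups of sites were chosen by the same rule and can be set beside each other. The counts over all merged regions were not split by position. A difference by position was also seen outside the shared sites. Without small RNAs, 70.5% of Lin- only and 10.9% of CD11b+ only sites lay within 100 nt of a splice site. The pattern is therefore not particular to shared sites. Per library, reads on the near sites divided by reads on the far sites gave 1.01, 0.646 and 1.27 in the Lin- replicates and 0.537 and 0.366 in the CD11b+ replicates. The technical libraries gave 0.920, 0.606 and 1.28 in Lin- and 0.425 and 0.280 in CD11b+. No CD11b+ library reached the lowest Lin- value. On the log2 scale the technical libraries had a mean of -0.16 ± 0.54 (SD, n = 3) in Lin- and -1.53 ± 0.42 (SD, n = 2) in CD11b+, a difference of 1.37 (exact permutation test, two-sided, p = 0.2, smallest possible 0.1).

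**Figure D5:**
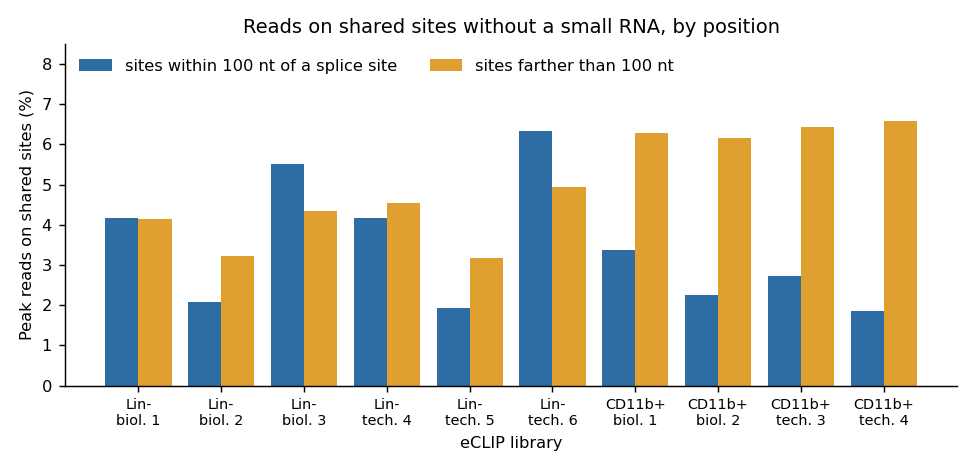
Share of all filtered peak reads (%, y axis) on shared sites without a small RNA in each of the 10 eCLIP libraries (x axis), for the 191 sites within 100 nt of a splice site and the 205 sites farther away. In CD11b+ libraries the farther sites hold 6.17% to 6.58% and the near sites 1.85% to 3.38%, while in Lin- libraries the farther sites hold 3.19% to 4.95% and the near sites 1.93% to 6.34%.

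By gene list, the sites of MLL-fusion targets had a median log2 difference of -1.25 (15 sites, 1 higher in Lin- and 6 in CD11b+), against -0.07 over all 396 sites without a small RNA, of which 13.4% were higher in Lin- and 17.4% in CD11b+. Those of chromatin regulators had a median of -1.95 (8 sites, 0 and 6), and those of hematopoietic transcription factors -1.02 (19 sites, 0 and 6). Splicing genes had a median of 0.03 (51 sites, 7 and 3). Sites of the same gene were counted separately, with 6 sites in Zeb2, 3 in Arid1b and 3 in Irf8, so a few genes weigh heavily in the shorter lists. The lists share members, with Myb, Runx1, Runx2 and Zeb2 on both the MLL-fusion and the transcription factor list, Arid1b on the MLL-fusion and chromatin lists and Mbnl1 on the MLL-fusion and splicing lists, so these small counts are not independent. Zeb2 had sites on these lists, with 41, 49 and 9 unscaled reads in Lin- and 68 and 80 in CD11b+ at its TG-bearing site (chr2:45045572-45045732, minus strand). Scaled by the reads in filtered peaks, the cell types overlapped at this site, so it was not among those higher in CD11b+. In the chromatin gene Arid1a, a deep intronic site held 10, 13 and 17 reads in Lin- and 66 and 65 in CD11b+.

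By their median, genes with shared sites were well expressed. The authors' mean normalized count of host genes had a median of 3870 in Lin- (371 of 446 IDs in the table) and 2333 in CD11b+ (372 of 446), against 2466 and 1294 over all genes with a peak in Lin- replicate 1 and 54.7 and 47.3 over all genes. The host genes of Lin- only sites had medians of 4503 and 2331. The means pool both genotypes, have no spread, and were normalized separately for each cell type, so levels are not compared between cell types. Btd, with 573 in Lin- and 494 in CD11b+, was below the lower quartiles of the host genes (1245 and 748). Some host genes were hardly expressed, such as Syndig1 with 0.620 in Lin- and 0.975 in CD11b+, and Stmn2 with 0.482 and 0.340. The Syndig1 site had no small RNA and was among those higher in Lin-.

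The edge of the definition is shown by sites just inside and just outside it. An overlap of 1 nt in at least 1 library admitted 8 sites, such as Trrap with 71, 536 and 142 reads in Lin- and 232 and 9 in CD11b+. Another was in Nop58, with 24, 610 and 70 reads in Lin- and 27 and 128 in CD11b+. Just outside, a peak in Mgat5 missed CD11b+ replicate 1 by 1 nt, with 5, 206 and 43 reads in Lin- and 108 in CD11b+ replicate 2. In all, 710 peaks of Lin- replicate 1 missed the definition by 1 library, 299 of them by CD11b+ replicate 1, and 25 by under 10 nt.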

How the data were processed

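Peaks of IGF2BP3 eCLIP and smInput were used as deposited. Per the methods and the file headers, the authors trimmed and repeat-filtered the reads, mapped them to mm10, removed duplicates, called peaks per library with CLIPper at a p below 0.05 and removed eCLIP peaks that overlap smInput peaks. Inputs and eCLIP libraries differed in their deduplication and peak calling settings. The p-value deposited with each peak has no header, nor has the last number of a peak's name, which was read as the reads in the peak. For RNA-seq, the authors deposited the mean normalized count of each gene (DESeq2, counts divided by size factors, a signal averaged over genotypes). The remaining columns of these tables hold the authors' comparison of I3KO with WT (fold changes, errors and p-values) and were not used. The submitters' processing notes name STAR 2.5.3a, Bowtie2 and DESeq2.

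Shared sites were found by overlap of 1 nt on the same strand (tested on simulated peaks). The genome was GRCm38.p6, and the annotation GENCODE M21, basic set. By midpoint, coding exons were preferred to 3′UTR, 5′UTR, small RNA, noncoding exon and intron. Small RNA sites are those whose peak overlaps a small RNA. Intervals are Wilson 95% intervals. Read depth per library is known only as reads in peaks. Groups were compared over libraries by exact permutation. Named sites follow a rule (the 10 sites with the smallest largest p, the 10 genes with most sites, members of gene lists in that order, the largest differences in each direction). Members and lists were chosen with earlier results of these data known. Some members and 1 list are not reported here. Alternatives covered the overlap, anchor library, filter, p limit, left-out libraries, windows, distances and annotation. Python 3.11.15, pandas 2.3.3, NumPy 2.4.6, SciPy 1.17.1, pysam 0.24.0, bedtools 2.31.1 and matplotlib 3.10.9 were used.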

Additional observations from a re-analysis of the deposited data

Results flagged for a closer look

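Among the 6 Lin- smInput libraries, smInput 2 stood apart in how many shared sites its peaks overlapped, with 1 site where the other 5 libraries had 0. Any library with 1 site among libraries with 0 stands apart in this way, so the value rests on 1 site, and its cause was not tested.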

How the results depend on the processing

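No paired analysis was possible because the technical libraries that were compared share only 1 replicate number between the cell types. Of 108 alternatives, 63 planned and the others chosen after seeing the data, 66 were labelled the same, 37 moved and 5 reversed. The label of the same does not mean a value within the spread. It was given to numbers of shared sites from 487 to 911, against 612 as reported. Recovery differences with this label kept their sign but could differ in size. That between cell types reached -10.1 points against -1.58, and the excess over Lin- only sites reached 29.4 against 13.2.
The number of shared sites was 2143 before the smInput filter, 350 with a p below 0.001, and 712 to 963 with 1 biological library left out (963 without Lin- replicate 1). The intronic share was 59.8% with CD11b+ replicate 1 as anchor, 25.4% before the filter, 46.6% with a p below 0.001, 36.8% with all transcripts and 63.7% over joined loci. The small RNA share was 27.7%, 64.8% and 40.9% in the same order, 23.2% over joined loci and 29.3% to 33.0% with 1 library left out. The CA share was 9.97% with 100 nt to either side and 6.60% to 9.66% with 1 library left out (9.66% without Lin- replicate 1). The TG share was 8.31% before the filter, 12.3% with 25 nt and 23.0% with 100 nt to either side, 11.1% in the peak and 13.3% to 20.8% with 1 library left out. The share near splice sites, 36.8% over all sites, was 19.7% before the filter, 28.1% within 50 nt, 48.7% within 200 nt and 32.9% to 40.5% with 1 library left out. Sites on smInput peaks numbered 2 with an overlap of 50%, 11 with the CD11b+ anchor, 1531 before the filter 3 with a p below 0.001, and 26 to 90 with 1 library left out (90 without Lin- replicate 1), whose own input then no longer acts on the sites.
The recovery difference between cell types (-1.58 points) turned positive without CD11b+ biological replicate 1 (10.4) or 2 (2.86), was -10.1 without Lin- biological replicate 1,, and was positive without CD11b+ technical replicate 4 (0.218) or Lin- technical replicate 4 (2.78). The excess over Lin- only sites was -27.8 points for sites taken before the filter, where the technical peaks were still filtered.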
